A study of Mus musculus with 47 samples.

Results

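Cbarp and 9 subunits of voltage-gated calcium channels were followed through brainstem and hippocampus of transgenic and wild-type mice on 2 diets. The members were the rows of the count tables whose mouse gene identifiers map to Cbarp, Cacna1a, Cacna1b, Cacna1c, Cacna1d, Cacna1e, Cacna1g, Cacna1h, Cacnb3 and Cacnb4. They were 10 of the 29858 genes listed in both tables, and all 10 passed the count filter among the 13340 genes tested in brainstem and the 13272 tested in hippocampus. Cbarp was taken to have been selected on its difference between TG and WT in hippocampus on both diets. That difference is therefore given as a description, with no p-value, and so are the genotype differences of the other members in hippocampus, which come from the same contrasts. Counts of members called in these contrasts restate the choice of Cbarp.

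TG mice carried a transgene driven by a Thy1 promoter in neurons of the central nervous system and came from a homozygous colony. WT mice came from a parallel colony of the same outcross with C57BL/6, so that genotype and colony cannot be told apart. All mice were males, fed a standard chow diet (SD) or a high-fat diet (HFD) from soon after weaning to about a year of age. Poly(A) RNA was sequenced from the posterior part of the medulla, called brainstem here, and from whole hippocampus. The 47 libraries comprised 23 of brainstem, with 5 in WT SD and 6 in each of WT HFD, TG SD and TG HFD, and 24 of hippocampus, with 6 per group. Each library was taken as a separate mouse of its group, and the labels do not say which libraries of the 2 regions share a mouse.

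Voltage-gated calcium channels open upon depolarization and let calcium enter the cell, which in neurons drives transmitter release, firing patterns and calcium-dependent transcription. Each channel has a pore-forming subunit (Cacna1 genes) that sets its type. High-voltage-activated channels also carry a cytosolic beta subunit (Cacnb genes), which assists trafficking and gating of the pore, and an α2δ subunit. Cbarp encodes a neuronal membrane protein that binds beta subunits and lowers calcium channel activity at the cell surface. Of the pore-forming members, Cacna1a and Cacna1b form the P/Q-type and N-type channels of presynaptic terminals, and Cacna1e forms the R-type channel. Cacna1c and Cacna1d form L-type channels, and Cacna1g and Cacna1h form low-voltage-activated T-type channels.

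The promoter of Cbarp is shown because Cbarp carries the genotype difference, beside those of Cacnb3 and Cacnb4, the beta subunit genes whose levels differed most and least between the regions. Each is the window of 250 bases before to 50 bases after the most upstream start listed by RefSeq on GRCm38.p6, read 5′ to 3′ on the strand of the gene. Capitals mark the GC box, searched as GGGCGG on both strands (CCGCCC on the other strand), with overlapping matches counted separately. Cbarp lies on the minus strand with its window at chr10:80139318-80139617, Cacnb3 on the plus strand at chr15:98632078-98632377, and Cacnb4 on the minus strand at chr2:52676094-52676393.
Cbarp: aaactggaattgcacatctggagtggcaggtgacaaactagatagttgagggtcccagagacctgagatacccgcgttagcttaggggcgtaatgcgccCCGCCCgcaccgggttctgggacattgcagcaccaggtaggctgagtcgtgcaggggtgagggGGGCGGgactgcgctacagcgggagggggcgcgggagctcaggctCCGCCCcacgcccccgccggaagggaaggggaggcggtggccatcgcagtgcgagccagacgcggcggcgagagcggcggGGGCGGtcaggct
Cacnb3: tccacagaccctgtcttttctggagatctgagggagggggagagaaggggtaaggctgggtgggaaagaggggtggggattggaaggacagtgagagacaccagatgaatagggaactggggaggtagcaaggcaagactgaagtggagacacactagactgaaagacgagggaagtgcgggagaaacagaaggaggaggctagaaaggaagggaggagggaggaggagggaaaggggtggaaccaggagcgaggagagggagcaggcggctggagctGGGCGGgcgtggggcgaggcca
Cacnb4: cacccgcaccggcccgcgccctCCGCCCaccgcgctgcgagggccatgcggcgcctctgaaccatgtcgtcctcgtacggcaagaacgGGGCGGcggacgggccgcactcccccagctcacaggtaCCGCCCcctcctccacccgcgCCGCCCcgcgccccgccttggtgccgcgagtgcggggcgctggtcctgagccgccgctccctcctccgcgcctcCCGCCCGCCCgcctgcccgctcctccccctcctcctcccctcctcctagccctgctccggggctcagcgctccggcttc
The Cbarp window held 4 GC boxes at a GC content of 68.0%, that of Cacnb3 held 1 at 59.7%, and that of Cacnb4 held 6 at 78.3%. A GC box was present in 35.7% of the 32851 windows in the RefSeq table, whose median GC content was 52.7%. Among the members, 7 of 10 were matched, and 7 of their 14 windows held a GC box. These matches describe the letters of the windows and say nothing of factor binding.

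CPM stands for counts scaled to the size of the library. Library totals ranged from about 10020800 to 15078800 counts in brainstem and from about 11946000 to 17328400 in hippocampus. Thy1, the gene whose promoter drives the transgene, served to check the genotype labels and was at 484 to 603 CPM in WT libraries and 6534 to 9310 CPM in TG libraries, without overlap in either region. The glycine transporter gene Slc6a5 of medullary inhibitory neurons was at 249 to 466 CPM in brainstem and at most 0.517 in hippocampus. The hippocampal excitatory neuron gene Neurod6 was at 180 to 257 CPM in hippocampus and 3.06 to 6.07 in brainstem. Libraries also differed in how their values depended on the GC content of genes. This was measured as a GC slope, the slope of a library's log2 deviations from the mean library per 10% of GC content. The slope ranged from −0.325 to 0.182 in brainstem and from −0.187 to 0.173 in hippocampus, and Cbarp transcripts, at 63.5% GC, exceeded 99.5% of the tested genes in GC content.

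In hippocampus, Cbarp was lower in TG than in WT mice on both diets. On SD, Cbarp CPM (normalised by TMM, the trimmed mean of M values) ran from 115 to 162 with a median of 149 in WT and from 81.7 to 112 with a median of 103 in TG. On HFD it ran from 148 to 188 with a median of 179 in WT and from 90.6 to 109 with a median of 98.9 in TG. Every TG library lay below every WT library on the same diet. The means were 142 ± 17.3 in WT SD, 175 ± 15.1 in WT HFD, 100.5 ± 10.7 in TG SD and 99.2 ± 6.52 in TG HFD (SD, n = 6 each). In the edgeR model with 4 surrogate variables, the log2 fold change TG/WT was −0.38 (SE 0.031) on SD and −0.47 (SE 0.040) on HFD, which is 0.768 and 0.724 of the WT level. In bulk tissue, fewer cells of a type and less RNA per cell cannot be told apart.

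**Figure D1:**
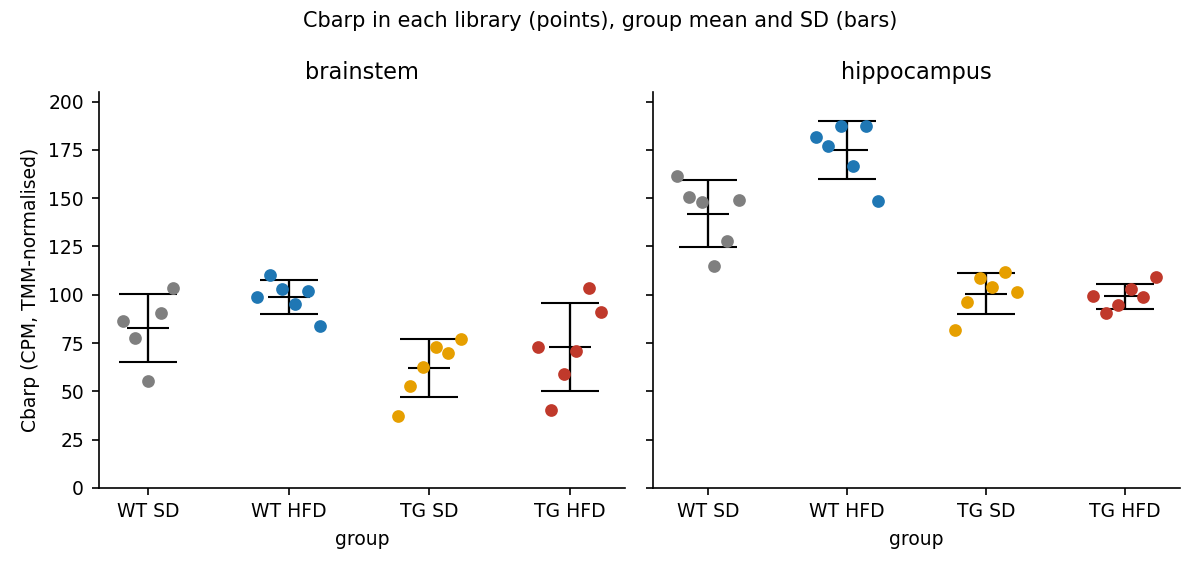
Cbarp in CPM (vertical axis) in the 4 groups of brainstem (left) and hippocampus (right), 1 point per library, with group means and SD as bars. In hippocampus all 12 TG libraries lie at or below 112 CPM and all 12 WT libraries at or above 115 CPM, whereas in brainstem TG and WT libraries overlap on both diets.

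The other 9 members showed no comparable genotype difference in hippocampus in this model. Their log2 fold changes TG/WT ran from −0.07 for Cacna1g to 0.08 for Cacna1c on SD, with a median of 0.0011 against −0.00058 over all tested genes. On HFD they ran from −0.20 for Cacna1e to 0.05 for Cacnb3, with a median of −0.032 against −0.0054 over all tested genes. Genes counted as called when p, adjusted by Benjamini-Hochberg over all tested genes, was no higher than 0.05 and the log2 fold change reached 0.3 in either direction. By this rule 1 of the 10 members, Cbarp, was called on each diet, beside a background of 0.0904% of genes on SD and 0.226% on HFD. CPM did not overlap between TG and WT for 1 member, again Cbarp, beside 0.264% of genes on SD and 4.15% on HFD. These counts are no test, and nothing is read from them, since these contrasts chose Cbarp.

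The size of the HFD difference depended on the surrogate variables, covariates estimated from the data to absorb variation left over by genotype and diet. They need not be independent of the groups, and their overlap with genotype was not tested. Without them, the log2 fold change of Cbarp in hippocampus was −0.50 (SE 0.076) on SD and −0.82 (SE 0.076) on HFD. With a correction of each library for GC content in their place, the values were −0.41 (SE 0.033) and −0.44 (SE 0.033). Both T-type members also moved with this choice. On HFD the log2 fold change TG/WT of Cacna1h was −0.038 (SE 0.063) with 4 surrogate variables, −0.43 (SE 0.097) without them and −0.17 (SE 0.073) with the GC correction. That of Cacna1g was −0.031 (SE 0.095), −0.36 (SE 0.099) and −0.17 (SE 0.088) under the same 3 models. Without WT HFD replicate 8, the values with 4 surrogate variables were −0.16 for Cacna1h and −0.22 for Cacna1g. Cacna1h CPM ran from 71.6 to 116 with a median of 94.7 in WT HFD and from 60.4 to 77.4 with a median of 67.0 in TG HFD, so that the groups overlapped. Cacnb3, with the highest value among the other members under 4 surrogate variables, ran from 177 to 214 CPM with a median of 191 in WT HFD. In TG HFD it ran from 158 to 182 with a median of 162. At an unadjusted p of at most 0.05 on HFD, 2 members were counted with 4 surrogate variables, 5 without them and 6 with 2. Over all genes, 1506, 2912 and 3804 were at that level. Without surrogate variables Cbarp, Cacna1g and Cacna1h met both thresholds of the call rule on HFD, as did 3.88% of all tested genes, and with 2 surrogate variables the same 3 did, beside 4.78%. Like the other values of this contrast, these are descriptions.

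**Figure D2:**
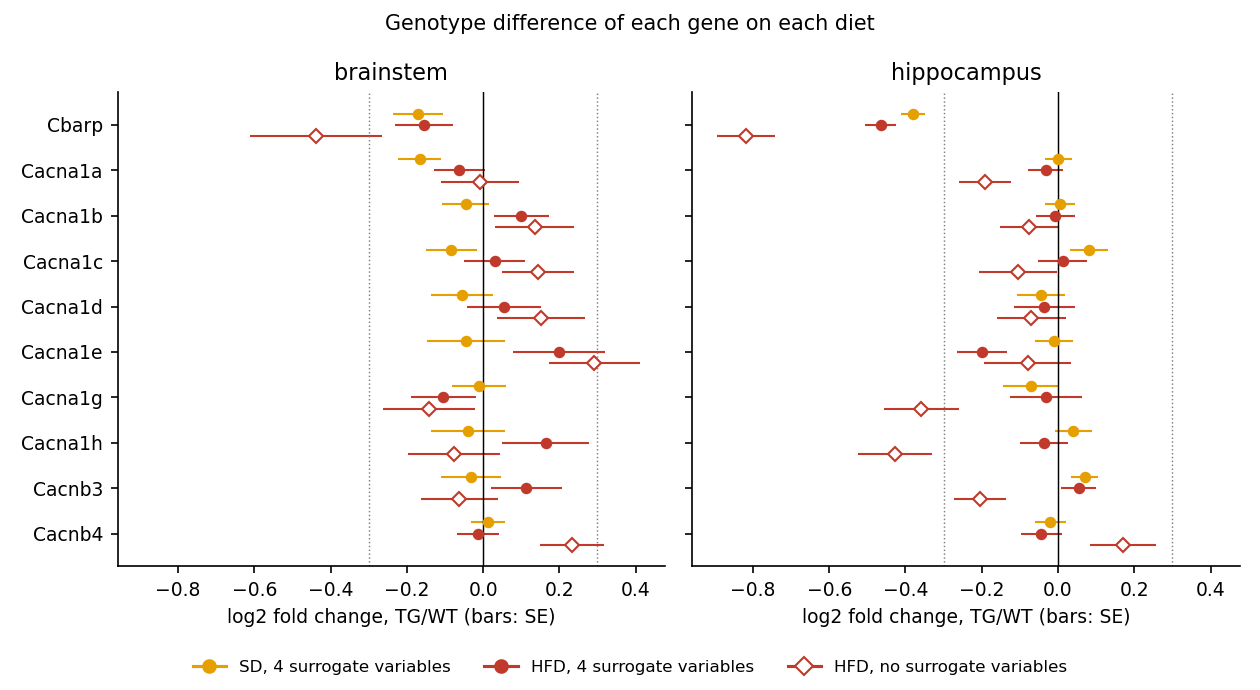
Log2 fold change TG/WT (horizontal axis, bars give SE) of the 10 genes in brainstem (left) and hippocampus (right). Filled circles show SD and HFD with 4 surrogate variables and open diamonds HFD without them, and dotted lines mark the fold threshold of 0.3. Cbarp in hippocampus lies beyond the threshold in each model shown, and Cacna1g and Cacna1h lie beyond it there only on HFD without surrogate variables.

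Genotype values of Cbarp moved with the GC slope of the libraries. In hippocampus the GC slope ran from −0.0197 to 0.173 in WT HFD and from −0.125 to 0.00523 in TG HFD, and from −0.0990 to 0.0715 in WT SD and from −0.187 to 0.0539 in TG SD. Pearson's r between the slope and Cbarp log2 CPM was 0.85 over the 24 hippocampus libraries and 0.90 after group means were subtracted, and in brainstem it was 0.93 and 0.90 over 23 libraries. These correlations are descriptions, since the slope and the CPM come from the same libraries. Among the members, r with the slope after subtraction of group means was also high for Cacnb3 (0.88 in hippocampus, 0.69 in brainstem), whose transcripts have 61.3% GC. It was −0.84 and −0.66 for Cacnb4, at 40.5% GC the member poorest in GC. With the values corrected for GC content, the hippocampal difference of Cbarp was −0.41 on SD and −0.44 on HFD, as given above.

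**Figure D3:**
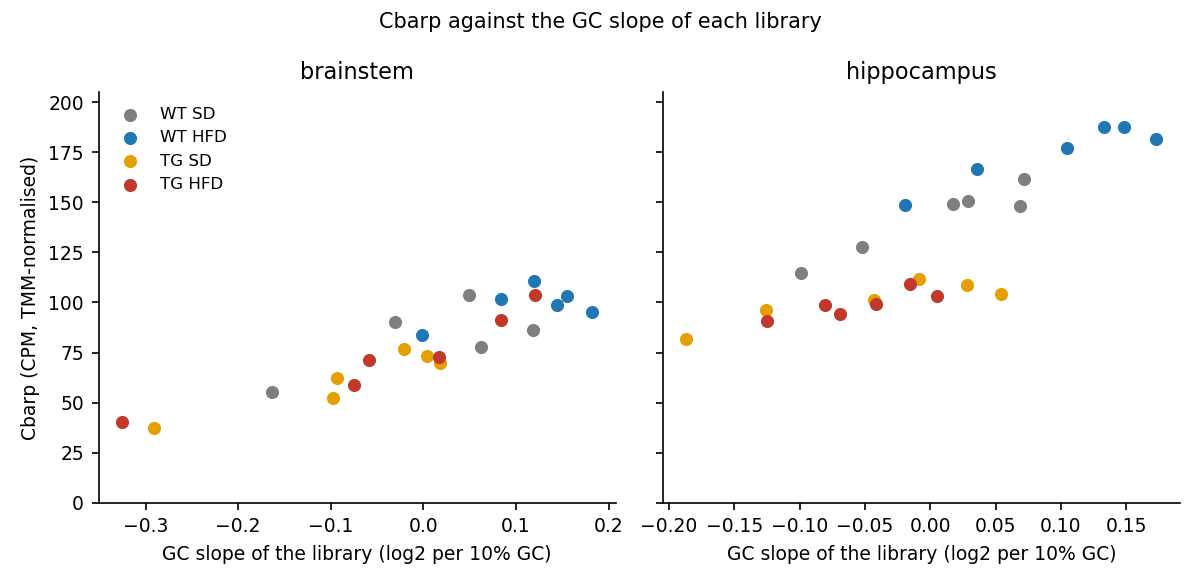
Cbarp in CPM (vertical axis) against the GC slope of the library in log2 per 10% GC (horizontal axis), 1 point per library coloured by group, for brainstem (left) and hippocampus (right). Cbarp rises with the slope in both regions, and in hippocampus the TG points run below the WT points along the shared range of slopes.

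Markers of other cells were examined beside the Cbarp difference in hippocampus. Of the 9 marker lists with genes tested in hippocampus, none had a gene called between TG and WT on either diet. The 7 hippocampal excitatory neuron markers summed to 1948 to 2234 CPM in WT HFD and 1769 to 1967 in TG HFD, and to 1785 to 2132 in WT SD and 1818 to 2015 in TG SD. On HFD the median log2 fold change TG/WT was −0.096 over these 7 markers, −0.12 over 6 astrocyte markers, −0.099 over 6 microglia markers and −0.17 over 5 endothelial markers, against −0.0054 over all tested genes. All microglia and endothelial markers were below 0 there, and the astrocyte markers ran from −0.20 to 0.047. The 6 general neuron markers had a median of 0.032 and ran from −0.013 to 0.071. They summed to 4933 to 5352 CPM in WT HFD and 4920 to 5451 in TG HFD. Medians were −0.061 over 5 inhibitory neuron markers, −0.060 over 6 oligodendrocyte, −0.22 over 2 cerebellar and −0.087 over 3 choroid plexus markers. The summed CPM was 2074 to 2421 in WT HFD and 2008 to 2503 in TG HFD for astrocyte markers, 257 to 313 and 253 to 300.5 for microglia markers, and 169.6 to 203 and 141 to 185 for endothelial markers. The part of these lists in the HFD difference was not tested. In the annotation, Stk11 and Atp5d overlap Cbarp on the opposite strand, and the counting was not stated to use strand, so reads in shared stretches cannot be told apart. In hippocampus the log2 fold change TG/WT of Stk11 was 0.10 (SE 0.050) on SD and −0.017 (SE 0.064) on HFD, and that of Atp5d was −0.055 (SE 0.035) and −0.091 (SE 0.046). Of the 20 nearest tested genes around Cbarp, 10 on each side, none was called by edgeR between TG and WT in either region on either diet. At an unadjusted p of at most 0.05 there were 0 in brainstem on both diets, and 0 on SD and 3 on HFD in hippocampus. Over all 13272 genes tested in hippocampus, 1205 were at that level on SD and 1506 on HFD. The median log2 fold change of the 20 neighbours in hippocampus was −0.039 on SD and −0.019 on HFD. On SD 13 of the 20 were below 0, with a range from −0.22 to 0.11. On HFD 14 of the 20 were below 0, with a range from −0.49 (SE 0.18) for Efna2 to 0.12.

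Brainstem, whose libraries were taken not to have chosen Cbarp, gave lower mean levels in TG with overlapping groups. Its mice came from the same colonies and may be those of hippocampus, so brainstem cannot be taken as an independent set of mice. On SD, Cbarp CPM was 55.6, 77.9, 86.3, 90.5 and 103.7 in the 5 WT libraries and ran from 37.4 to 76.97 with a median of 66.0 in the 6 TG libraries. On HFD it ran from 83.8 to 110.5 with a median of 100.4 in WT and from 40.1 to 103.5 with a median of 71.9 in TG. On SD 2 of the 6 TG libraries lay below every WT library, and on HFD 4 of 6 did. In the model with 4 surrogate variables Cbarp differed by −0.17 on the log2 scale on SD (SE 0.065), with an adjusted p of 0.309, and the difference was −0.107 without WT SD replicate 7 and −0.249 without WT SD replicate 1. On HFD the difference was −0.16 (SE 0.076), with an adjusted p of 0.884. It was −0.42 (adjusted p = 0.788) and −0.44 (adjusted p = 0.179) without surrogate variables, and −0.30 (adjusted p = 0.745) and −0.17 (adjusted p = 0.397) with the GC correction. Two-sided exact permutation tests of the mean log2 CPM, without covariates, gave a difference of −0.43 on SD (p = 0.0887) and −0.50 on HFD (p = 0.0281), or 0.0887 and 0.0563 after adjustment over both. The smallest p these tests allow is 0.00216. The GC slope ran from −0.000995 to 0.182 in WT HFD and from −0.325 to 0.120 in TG HFD of brainstem. In brainstem, Cbarp thus missed the threshold in each adjusted test.

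None of the other 9 members was called between TG and WT in brainstem. By edgeR 0 of 10 members were called on SD, where 0.142% of all genes were, and 0 of 10 on HFD, where 0.0525% were. At an unadjusted p of at most 0.05 there were 2 members on SD (Cbarp and Cacna1a), where 1399 of 13340 genes were at that level, and 0 on HFD, where 746 were. On HFD this count was 3 without surrogate variables, 2 with 2 of them and 3 with the GC correction. Over all genes it was 2625, 2179 and 1781 of 13340 in these models. DESeq2 called 0 members on both diets. Cacna1a, the P/Q-type pore, ran from 41.9 to 66.9 CPM with a median of 59.1 in WT SD and from 40.0 to 50.8 with a median of 45.0 in TG SD, and differed by −0.17 on the log2 scale (SE 0.055, adjusted p = 0.249). On HFD its groups had medians of 53.3 in WT and 52.7 in TG. The largest absolute value on HFD belonged to Cacna1e, the R-type pore, at 0.20 (SE 0.12, adjusted p = 0.949). The endothelial gene Cldn5 was the marker called in brainstem, at 0.39 (SE 0.084, adjusted p = 0.0284) on SD, and its part in the values above was not tested.

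No member was called between the diets in either region. In WT, HFD against SD called 0 of 10 members in brainstem and 0 of 10 in hippocampus, with 0% of all genes called in each. In TG it called 0 of 10 in brainstem, beside 0.0075% of all genes, and 0 of 10 in hippocampus, beside 0%. The genotype by diet interaction called 0 of 10 in brainstem, beside 0.0075%, and 0 of 10 in hippocampus, beside 0%. DESeq2 called 0 members in each of these 6 comparisons. At an unadjusted p of at most 0.05, edgeR gave 0, 2 and 0 members in brainstem for WT, TG and the interaction, and 2, 3 and 1 in hippocampus. Over all genes, 724, 922 and 644 of 13340 were at that level in brainstem for WT, TG and the interaction. In hippocampus 850, 940 and 794 of 13272 were. Where edgeR called 0 of all genes, DESeq2 called 1 for WT in brainstem. In hippocampus it called 3, 2 and 1 for WT, TG and the interaction.

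Cbarp itself had the higher median CPM on HFD in WT mice of both regions. In brainstem the medians were 86.3 in WT SD and 100 in WT HFD, and 66.0 in TG SD and 71.9 in TG HFD, with overlapping groups. In hippocampus the median was 149 in WT SD and 179 in WT HFD. Of the 6 WT HFD libraries, 5 lay above the highest WT SD library, and 1, at 148, lay at the median of WT SD. HFD over SD was 0.09 on the log2 scale (SE 0.033, adjusted p = 0.721) with 4 surrogate variables, 0.30 (SE 0.075, adjusted p = 0.169) without them and 0.055 (SE 0.033, adjusted p = 0.947) with the GC correction. With 2 surrogate variables it was 0.31 and met the call rule (adjusted p = 0.0428). In TG hippocampus the medians were 103 on SD and 98.9 on HFD, and HFD over SD was 0.0049 (SE 0.030, adjusted p = 0.989). The hippocampal interaction, the HFD genotype difference minus the SD one, was −0.084 (SE 0.046) with 4 surrogate variables and −0.32 (SE 0.11) without them. It is built from the contrasts that chose Cbarp and is given as a description. The diet comparisons of hippocampus use libraries of those contrasts as well, so their p-values for Cbarp are not independent of the choice.

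In TG hippocampus, 3 of the pore-forming genes had values below 0 on HFD against SD at an unadjusted p of at most 0.05, a level that 940 of the 13272 genes reached. No member reached it without surrogate variables or with the GC correction, beside 369 and 457 of all genes. With 2 surrogate variables 1 member did, beside 610 of all genes. Cacna1a had medians of 96.4 CPM on SD and 90.3 on HFD, or −0.13 in the model (SE 0.033, adjusted p = 0.30). Cacna1c was at −0.16 (SE 0.046, adjusted p = 0.320) and Cacna1e at −0.16 (SE 0.047, adjusted p = 0.336). The CPM of Cacna1e was 296 ± 61.9 on SD, with a median of 275, and 279 ± 26.2 on HFD, with a median of 281, so that the means differed in the direction of the model and the medians did not. None of them passed after adjustment, and each group of 6 overlapped the other. In TG brainstem Cacna1e ran from 30.9 to 50.1 CPM on SD and from 39.1 to 62.5 on HFD, or 0.28 in the model (SE 0.10, adjusted p = 0.546). Cacna1e thus lay on opposite sides of 0 in the 2 regions, a difference that was not tested.

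In a model of all 47 libraries, hippocampus was higher than brainstem for 8 of 10 members by the call rule and lower for 0, beside 29.2% of all genes called higher and 31% called lower. The CPM ranges of the regions did not overlap for 7 of the 10 members, beside 35% of all genes. The median log2 fold change over the 10 members was 1.29 against −0.021 over all tested genes. Regions were held in separate tables and their libraries may have been prepared apart, so region and preparation cannot be told apart. The model used no surrogate variables, and all values in it have hippocampus over brainstem as their direction. It treated the 47 libraries as independent, although libraries of both regions may come from the same mouse.

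The steepest region differences belonged to Cacna1h, Cacnb3 and Cacna1e. Cacna1h, a T-type pore, was at 0.933 ± 0.137 RPKM (reads per kilobase of exon, scaled to library size, SD, n = 23) in brainstem and 7.97 ± 1.40 (n = 24) in hippocampus, which is 3.09 on the log2 scale (SE 0.058, adjusted p = 6.22e-42). Cacnb3, a beta subunit, was at 5.77 ± 0.746 RPKM and 44.7 ± 4.36, or 2.95 (SE 0.045, adjusted p = 9.71e-46). Cacna1e was at 1.71 ± 0.295 RPKM and 11.9 ± 1.90, or 2.80 (SE 0.067, adjusted p = 2.43e-37). In each of the 3 genes the lowest hippocampus library exceeded the highest brainstem library.

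The L-type pores and the presynaptic pores were also higher in hippocampus, by smaller folds. The log2 fold change was 1.93 (SE 0.055) for Cacna1c and 1.25 (SE 0.055) for Cacna1d. It was 1.33 (SE 0.048) for Cacna1b and 0.96 (SE 0.046) for Cacna1a. All 4 passed, with the highest adjusted p at 1.51e-24 for Cacna1a, and none overlapped between regions. Cbarp was higher in hippocampus at 0.73 (SE 0.071, adjusted p = 3.06e-13), from 15.6 ± 4.15 RPKM in brainstem to 26.2 ± 7.04 in hippocampus, with overlapping ranges. This call of Cbarp was lost with the GC correction, under which it was at 0.14 (SE 0.034, adjusted p = 0.000248), and it was 0.38 with surrogate variables.

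Cacna1g, also a T-type pore, and Cacnb4 did not pass the test between regions. Cacna1g was at 3.15 ± 0.494 RPKM in brainstem and 3.16 ± 0.547 in hippocampus, or −0.0041 on the log2 scale (SE 0.058, adjusted p = 0.947). Cacnb4 was at 11.9 ± 1.44 and 11.6 ± 1.39 RPKM, or −0.037 (SE 0.046, adjusted p = 0.446). Cacna1g was at −0.24 with the GC correction (SE 0.054, adjusted p = 7.67e-05), short of the fold threshold. The signs of both genes changed with the normalisation or filter, so no direction is given for either. The T-type members (Cacna1g and Cacna1h) and the beta members (Cacnb4 and Cacnb3) thus each held a gene that was called between regions and a gene that was not.

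**Figure D4:**
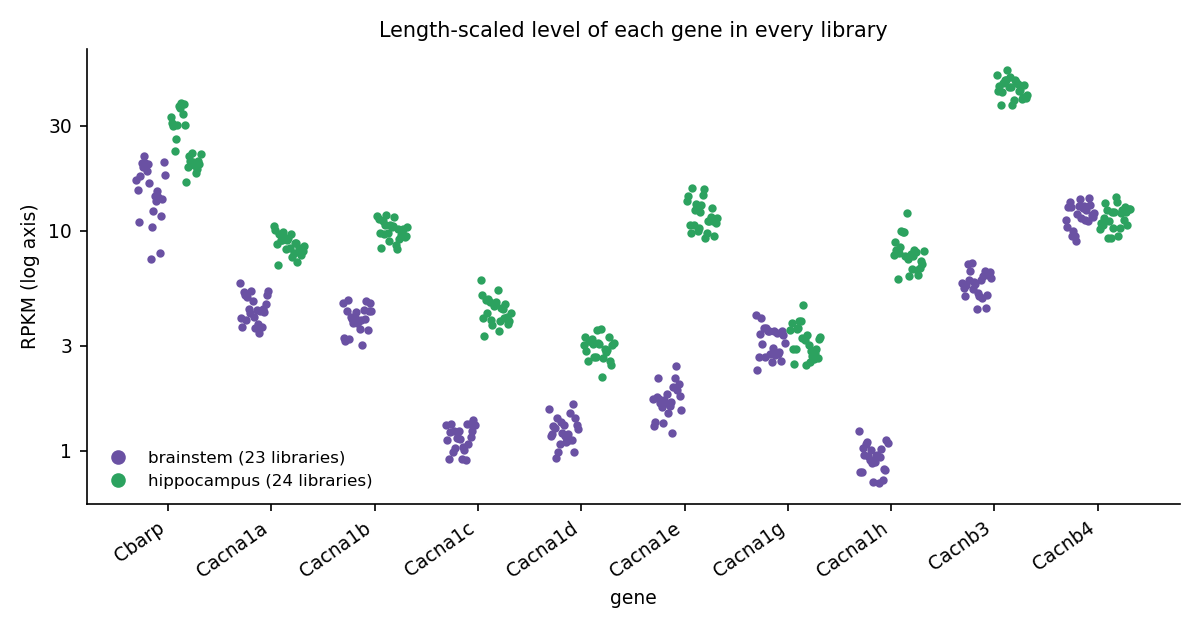
RPKM (vertical log axis) of the 10 genes in each of the 23 brainstem and 24 hippocampus libraries, 1 point per library. Cacna1h, Cacnb3 and Cacna1e show the widest gaps between regions, and the points of Cacna1g and Cacnb4 lie at the same height in both.

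In order of RPKM, brainstem ran Cbarp, Cacnb4, Cacnb3, Cacna1a, Cacna1b, Cacna1g, Cacna1e, Cacna1d, Cacna1c and Cacna1h. Neighbours whose means differed by less than the larger SD were Cbarp and Cacnb4, Cacna1a (4.46) and Cacna1b (3.99), and Cacna1d (1.24) and Cacna1c (1.15). In hippocampus the order was Cacnb3, Cbarp, Cacna1e, Cacnb4, Cacna1b, Cacna1a, Cacna1h, Cacna1c, Cacna1g and Cacna1d. There the neighbours within the larger SD were Cacna1e and Cacnb4, Cacna1a (8.71) and Cacna1h, and Cacna1g and Cacna1d (2.95). RPKM used the summed exon length of a gene, which counts every isoform, so levels are compared between genes only roughly.

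The make-up of the pore-forming transcripts differed accordingly between regions. Over all 10 pore-forming genes the summed RPKM was 19.4 ± 2.25 in brainstem (n = 23) and 54.4 ± 5.90 in hippocampus (n = 24). Cacna1e made up 8.85% ± 1.29 of this sum in brainstem and 21.8% ± 1.99 in hippocampus, and Cacna1h 4.83% ± 0.577 and 14.6% ± 1.90. Cacna1g, in contrast, went from 16.2% ± 1.51 to 5.82% ± 0.716, and Cacna1a from 22.96% ± 1.61 to 16.0% ± 0.731. The share ranges of these 4 genes did not overlap between the regions. Among the 4 beta subunit genes, Cacnb4 was the largest share in brainstem (45.7% ± 4.94) and Cacnb3 in hippocampus (53.6% ± 2.60), where Cacnb4 held 14% ± 2.28. Shares sum to a fixed total, so a rise of 1 gene lowers the others without a change in their level.

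**Figure D5:**
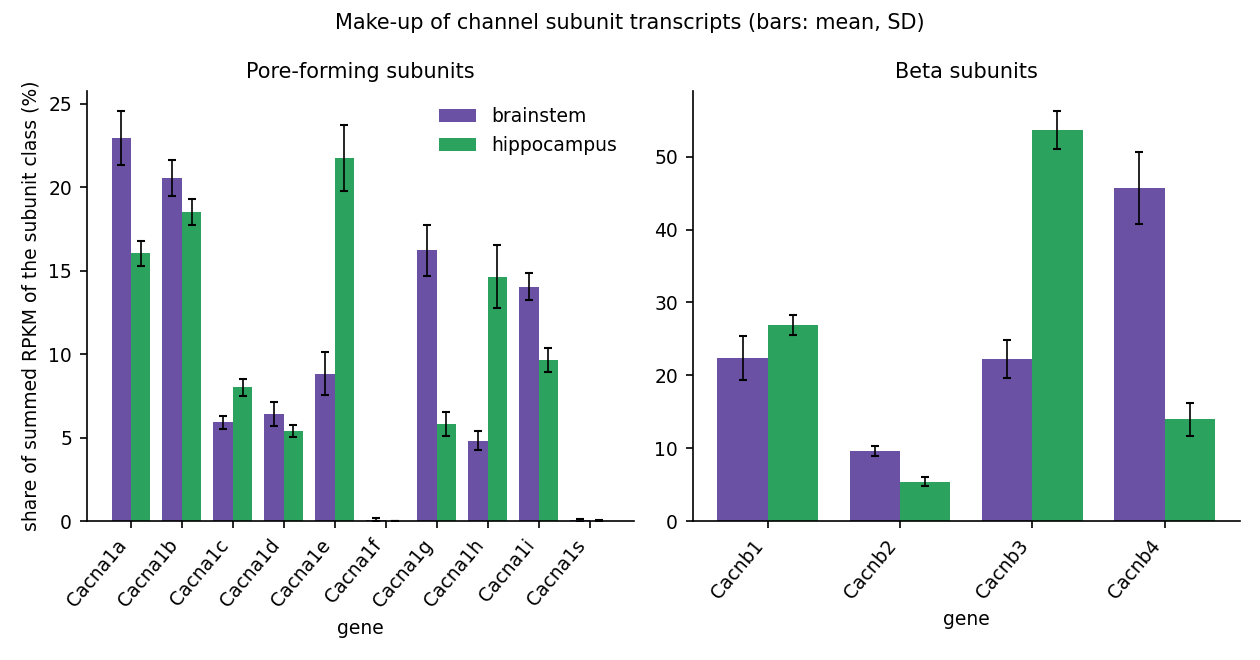
Share of the summed RPKM (vertical axis, %) of 10 pore-forming genes (left) and 4 beta subunit genes (right) in brainstem and hippocampus, with bars as means and error bars as SD over 23 and 24 libraries. Cacna1e, Cacna1h and Cacnb3 hold larger shares in hippocampus, and Cacna1a, Cacna1g and Cacnb4 in brainstem.

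Cbarp RPKM relative to the summed RPKM of the 4 beta subunit genes, its binding partners, was 0.601 ± 0.157 in brainstem and 0.312 ± 0.0678 in hippocampus. In brainstem the ratio was 0.609 ± 0.0971 in WT SD, 0.775 ± 0.0896 in WT HFD, 0.481 ± 0.0990 in TG SD and 0.539 ± 0.156 in TG HFD. In hippocampus it was 0.348 ± 0.0238 in WT SD and 0.400 ± 0.0236 in WT HFD, against 0.25 ± 0.0161 in TG SD and 0.252 ± 0.0110 in TG HFD. The hippocampal ratios again follow the contrast that chose Cbarp and are a description.

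Other listed subunit genes, channel regulators and calcium-activated potassium channel genes were not called within either region. Between genotypes, diets and for the interaction, 0 of the 1 tested other pore-forming gene (Cacna1i), 2 other beta, 4 α2δ and 6 gamma subunit genes passed in brainstem, and the same numbers were tested with 0 passing in hippocampus. Of 16 tested channel regulators in brainstem and 17 in hippocampus, none was called, and the same held for 5 and 6 calcium-activated potassium channel genes. Between regions, Cacna1i, a T-type pore, was higher in hippocampus at 0.94 (SE 0.050), as were Cacnb1 at 1.94 (SE 0.048) and Cacnb2. Of the α2δ genes 2 were higher and 1 lower in hippocampus, with Cacna2d2 the largest at −1.91 (SE 0.045). Of the gamma genes 2 were higher and 3 lower, led by Cacng8 at 3.23 (SE 0.051), which encodes an auxiliary protein of AMPA receptors. Of 17 regulators 10 were higher and 3 lower, led by the anchoring protein gene Akap5 at 3.39 (SE 0.058), and of 6 potassium channel genes 3 were higher and 0 lower, led by Kcnmb4 at 2.53 (SE 0.088).

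Markers of cell types moved with the region difference as well. Oligodendrocyte markers summed to 12291 to 20737 CPM in brainstem and 2986 to 4639 in hippocampus, and 6 of 6 were lower in hippocampus. All 7 hippocampal excitatory neuron markers were higher there, with a median log2 fold change of 4.26, and their sum was 98.8 to 185 CPM in brainstem and 1769 to 2234 in hippocampus. The cholinergic neuron gene Chat was at 11.9 to 25.1 CPM in brainstem and at 0 in 15 of 24 hippocampus libraries. Of 6 general neuron markers 3 were higher and 3 lower. The part of cell make-up in the channel differences between regions was not tested.

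The genes whose log2 CPM followed Cbarp most closely over the libraries were listed for each region. Over the 23 brainstem libraries they were Gpc1, Agap3, Ptprn, Scaf1 and Grin1, with Pearson's r from 0.957 to 0.971 and from 0.952 to 0.967 after subtraction of group means. Over the 24 hippocampus libraries they were Srebf2, Eml2, Lypla2, Grin1 and Fam19a5, with r from 0.932 to 0.951 and from 0.769 to 0.927 after subtraction. Grin1, a subunit of NMDA receptors, was in both lists. Their transcripts had 53.9% to 63.0% GC, against a median of 49.4% over the tested genes. Among the members, r with Cbarp after subtraction of group means was highest for Cacnb3, at 0.82 in brainstem and 0.83 in hippocampus, and lowest for Cacnb4, at −0.37 and −0.65. The libraries share depth and GC slope, so these correlations are descriptions.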

How the data were processed

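RNA of 23 brainstem and 24 hippocampus libraries was analysed from a count table per region. The authors aligned single-end reads with STAR 2.7.9a to the mouse genome of Ensembl with the transgene added, and deposited raw counts of reads per gene, without normalization; how reads were assigned to genes was not given in the sources used here. Replicates were checked for double deposits by a chi-square statistic of their counts, which was at least 3.66 per degree of freedom in every pair of a group. Symbols, exon lengths and transcript GC content came from a GRCm38 annotation, matched by identifier for 32610 of 33139 genes in brainstem and 31295 of 31751 in hippocampus; it is another build than that of the alignment, so no coordinates of the counted genes are given. Promoter sequences and their coordinates came from the RefSeq table of GRCm38.p6.

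A mean count of 50 or more was required of a gene for the quasi-likelihood test of edgeR 4.0.16 (R 4.3.3, TMM). A region's 4 groups shared a model that included 4 surrogate variables, their number estimated by sva 3.50.0. Benjamini-Hochberg adjustment ran over every gene tested. Standard errors were derived from the F statistics. Hippocampus was compared with brainstem in a model of 8 groups without surrogate variables. Log2 CPM used a prior count of 2. Alternatives were DESeq2 1.42.0, RLE normalization, other filters, 0 or 2 surrogate variables, a loess correction for GC content, the replicate number as a block, and leaving out each library. Library totals of about 10020800 to 17328400 counts limit the precision of low counts.

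The members, the gene lists and the rule for named genes were chosen with earlier results of these data known. The rule took every member, genes of the lists that were called, led their list by fold change or defined a cell type moving with a result, the 5 genes most alike to Cbarp, and its nearest neighbours. Cacna1h and Cacna1g were given a closer account after their values were seen. The sources do not say whether same-numbered libraries share a mouse or a batch. No p-value of a gene is printed for the hippocampal genotype contrasts or for the Cbarp interaction there. Counts at p thresholds in these contrasts are descriptions. The values of the transgene itself are not reported here. Figures were drawn with matplotlib in Python.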

Additional observations from a re-analysis of the deposited data

Results flagged for a closer look

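In 1 of the 80 sets of members and groups, a library stood apart from the others of its group. Cacna1e in brainstem WT HFD replicate 4 was at 34.1 CPM, while the other 5 libraries of the group lay between 40.4 and 44.0, a gap of 0.631 of the group's range. Chance places about 1 group in 20 beyond the critical value used.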

How the results depend on the processing

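Over all alternatives other than leaving out libraries, 232 values kept their direction and their side of the threshold, 12 changed sign and 1 no longer passed the threshold. The other 8 were 5 gene values that newly passed it and 3 counts of members that restate them. In hippocampus, TG HFD/WT HFD, 3 members were called with 0 and with 2 surrogate variables in place of 1. Cacna1g was then at −0.358 and −0.352 and Cacna1h at −0.427 and −0.421. In WT HFD/WT SD of hippocampus, 1 member (Cbarp) was called with 2 surrogate variables, at 0.314. Between regions, Cbarp was not called with the GC correction, at 0.137. Signs changed for values near 0. The Cbarp interaction in brainstem, 0.0149, became −0.0194 with 0 and −0.0674 with 2 surrogate variables and −0.103 without a count filter. Cbarp in hippocampus TG HFD/TG SD, 0.00492, became −0.0198 with 0 and −0.0197 with 2. Cacna1g between regions became 0.0135 with RLE, 0.0136 with DESeq2, 0.0517 with filterByExpr and 0.0741 without a filter, and Cacnb4 0.0191 with filterByExpr, 0.0418 without a filter and 0.0717 with the GC correction. The cause of these changes was not tested.

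Without 1 library at a time, 1004 values kept direction and call, and no call was gained or lost. The 31 that changed sign belonged to 5 results, which ranged from −0.0304 to 0.0171 (Cacna1g between regions), −0.164 to 0.0416 (Cacna1h, hippocampus TG HFD/WT HFD), −0.0504 to 0.1397 (Cbarp interaction, brainstem), −0.0960 to 0.0837 (Cbarp, brainstem WT HFD/WT SD) and −0.0175 to 0.0175 (Cbarp, hippocampus TG HFD/TG SD). Cbarp in hippocampus ranged from −0.463 to −0.356 on SD and from −0.615 to −0.451 on HFD, both lowest values without WT HFD replicate 8. In brainstem Cbarp TG/WT ranged from −0.249 (without WT SD replicate 1) to −0.107 (without WT SD replicate 7) on SD and from −0.233 (without TG HFD replicate 7) to −0.1095 (without WT SD replicate 1) on HFD. Cacna1g in hippocampus TG HFD/WT HFD ranged from −0.218 (without WT HFD replicate 8) to −0.00261 (without TG SD replicate 6). Without WT HFD replicate 8, Cbarp in hippocampus was at 0.1601 for WT HFD/WT SD and −0.1514 for the interaction.

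With the replicate block, hippocampal Cbarp TG/WT was −0.3875 (SD) and −0.4647 (HFD), brainstem Cbarp −0.1743 and −0.1245, and the block changed no call of a member. Over all genes, calls in brainstem fell from 19 to 6 on SD and from 7 to 3 on HFD, and calls in hippocampus went from 12 to 13 on SD and from 30 to 35 on HFD. Residual correlations were above 0.1 in 10 of 26 brainstem and 15 of 36 hippocampus pairs of same-numbered libraries from different groups. Across regions, 9 of 17 same-labelled pairs had them. The mean was 0.043 against −0.0052 for differently numbered pairs in brainstem, and 0.11 against −0.022 in hippocampus. Across regions it was 0.14 against −0.019. The sources do not explain the numbers, so the main models did not pair them and treated libraries as independent. Whether same-numbered libraries share a mouse or a batch was not tested. Over all genes, hippocampus TG HFD/WT HFD calls rose from 30 to 515 with 0, 634 with 2 surrogate variables and 98 with the GC correction, while brainstem SD calls went from 19 to 4 with 0 surrogate variables and 4 with the GC correction.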
